A study of Mus musculus with 7 samples.

Results

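The 53 genes described here act in mitosis, the step of the cell cycle in which duplicated chromosomes are separated and the cell divides. They were given as a list of symbols, and each of the 53 matched 1 of the 27998 genes in the deposited matrices. All 53 held unique molecular identifiers (UMIs, each standing for 1 captured RNA molecule) in the T cells of the series. The list was read in 7 single-cell libraries of T cells from the spleens of C57bl/6 mice with an acute infection by lymphocytic choriomeningitis virus, strain Armstrong. Total CD44high cells came from wild type mice at day 7 (2 libraries, replicate 1 and replicate 2). For these, the CD4+ and the CD8+ cells were sorted separately and then mixed in equal parts. Virus-specific cells were sorted with a tetramer of I-Ab, the class II molecule of this strain, loaded with GP66, a peptide of the virus. Wild type mice gave 1 such GP66+ library at day 7, through a CD44high CD4+ gate. The 4 other GP66+ libraries all carried Ox40-Cre and the RosaYFP reporter and were sorted as CD44high, GP66:I-Ab+ and YFP+, with no CD4 gate named. They were Thpok-sufficient (Ox40-Cre+ Thpokwt/wt RosaYFP+) or Thpok-deleted (Ox40-Cre+ Thpokfl/fl RosaYFP+), with 1 library of each at day 7 and 1 at day 30. Cre under Ox40 control acts in activated T cells, so deletion of Thpok, the transcription factor encoded by Zbtb7b that maintains helper T cell identity, followed activation. The labels do not give the age of the mice, or how many mice gave each library.

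Entry into mitosis is driven by the kinase Cdk1 bound to cyclin A or cyclin B. Polo-like and Aurora kinases then build the spindle, kinetochore proteins attach chromosomes to it, and the spindle checkpoint holds back the anaphase-promoting complex until every chromosome is attached. The central spindle and the contractile ring complete division. Most of these RNAs accumulate in the G2 and M phases of the cycle and are low in resting cells. T cells that meet antigen divide many times in the first week of an acute infection, and memory T cells divide rarely. The members were placed in 8 groups by role, namely Cdk1 with its cyclins and partners (7 genes), mitotic kinases and chromosomal passengers (6), the anaphase-promoting complex and spindle checkpoint (7), centromere and kinetochore (9), spindle and motor proteins (9), cytokinesis (6), chromosome structure and condensin (7), and 2 other regulators.

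Promoters of genes of this phase often hold the element TTTGAA, known as the CHR (cell cycle genes homology region), and CCAAT boxes. The 250 bases before the RefSeq start (GRCm38.p6) of 8 members are printed 5′ to 3′ on the strand of each gene, chosen with the values seen. Ccnb2, Top2a, Mki67 and Kif11 show the element, and Cenpf its variant TTTAAA, in members of several roles. Racgap1, Cks2 and Knstrn are members that stood apart in the values below. Capitals mark CCAAT or its reverse complement ATTGG, and TTTGAA, its reverse complement TTCAAA, or TTTAAA.
Ccnb2: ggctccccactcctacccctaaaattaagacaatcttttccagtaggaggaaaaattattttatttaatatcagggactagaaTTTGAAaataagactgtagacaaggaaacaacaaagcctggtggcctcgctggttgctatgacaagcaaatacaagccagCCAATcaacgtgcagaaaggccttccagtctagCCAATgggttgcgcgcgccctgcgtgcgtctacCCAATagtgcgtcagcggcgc
Top2a: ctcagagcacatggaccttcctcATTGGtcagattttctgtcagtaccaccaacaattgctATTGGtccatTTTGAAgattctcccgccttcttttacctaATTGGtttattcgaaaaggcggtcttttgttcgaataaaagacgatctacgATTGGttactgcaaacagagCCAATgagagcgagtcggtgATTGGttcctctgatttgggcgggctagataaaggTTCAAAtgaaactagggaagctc
Mki67: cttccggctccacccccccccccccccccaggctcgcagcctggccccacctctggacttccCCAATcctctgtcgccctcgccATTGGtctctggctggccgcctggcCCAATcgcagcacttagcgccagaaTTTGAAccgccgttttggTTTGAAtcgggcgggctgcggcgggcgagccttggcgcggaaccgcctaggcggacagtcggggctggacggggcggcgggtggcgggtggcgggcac
Cenpf: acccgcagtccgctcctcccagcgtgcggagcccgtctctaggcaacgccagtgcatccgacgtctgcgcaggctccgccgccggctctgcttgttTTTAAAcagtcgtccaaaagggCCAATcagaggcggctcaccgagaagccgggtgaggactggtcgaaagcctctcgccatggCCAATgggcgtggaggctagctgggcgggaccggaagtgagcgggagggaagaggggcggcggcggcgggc
Kif11: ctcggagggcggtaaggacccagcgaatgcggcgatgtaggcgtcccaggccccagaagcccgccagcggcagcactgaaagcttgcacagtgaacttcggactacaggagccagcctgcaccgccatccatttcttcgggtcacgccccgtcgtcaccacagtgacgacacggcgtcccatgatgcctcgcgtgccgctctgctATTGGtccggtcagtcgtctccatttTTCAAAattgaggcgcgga
Racgap1: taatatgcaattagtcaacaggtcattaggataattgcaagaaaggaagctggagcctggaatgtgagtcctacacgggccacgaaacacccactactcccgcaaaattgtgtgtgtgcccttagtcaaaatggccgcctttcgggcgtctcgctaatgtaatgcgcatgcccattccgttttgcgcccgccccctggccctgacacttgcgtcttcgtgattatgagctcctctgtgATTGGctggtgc
Cks2: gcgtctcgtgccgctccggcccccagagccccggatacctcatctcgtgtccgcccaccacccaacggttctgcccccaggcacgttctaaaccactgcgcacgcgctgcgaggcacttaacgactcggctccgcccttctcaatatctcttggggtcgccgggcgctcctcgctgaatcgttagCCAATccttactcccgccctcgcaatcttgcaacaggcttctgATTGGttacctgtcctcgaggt
Knstrn: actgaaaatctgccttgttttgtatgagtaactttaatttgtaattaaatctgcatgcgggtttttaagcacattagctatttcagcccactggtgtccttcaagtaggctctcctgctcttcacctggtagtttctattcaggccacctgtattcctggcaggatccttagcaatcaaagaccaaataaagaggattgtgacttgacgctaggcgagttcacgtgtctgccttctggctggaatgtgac

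The printed stretches are chr9:70421555-70421804 (minus strand) for Ccnb2, chr11:99024190-99024439 (minus) for Top2a, chr7:135716380-135716629 (minus) for Mki67 and chr1:189688087-189688336 (minus) for Cenpf. They are chr19:37376132-37376381 (plus) for Kif11, chr15:99651657-99651906 (minus) for Racgap1, chr13:51644982-51645231 (plus) for Cks2 and chr2:118813753-118814002 (plus) for Knstrn. Ccnb2, encoding cyclin B2, held 3 CCAAT boxes 87, 54 and 21 bases before its start and 1 TTTGAA 167 bases before it. Past the printed stretches, Ccnb2 had a further CHR match 4 bases after its start, and Cenpf a further one 2 bases after its start. Top2a, encoding topoisomerase II alpha, held 6 CCAAT boxes and 2 CHR matches. The Racgap1 and Cks2 stretches held 1 and 2 CCAAT boxes and no CHR match, and the Knstrn stretch held neither motif. Racgap1 had 1 CHR match 5 bases after its start, and Cks2 had further CCAAT boxes 14 and 32 bases after its start. RefSeq windows of 300 bases (250 before the start to 50 after it) were found for 46 of the 53 members, in 48 windows. Kif20a, Cdca2, Ccna2, Spc24, Smc4, Aurkb and Tpx2 had no entry.

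TTTGAA on either strand lay in 75% of the 48 windows of members against 17.9% of all 32851 promoter windows. The variant TTTAAA lay in 20.8% against 13.2%, and either form in 81.2% against 27.6%. A CCAAT box lay in 77.1% against 37.4%, at least 2 of them in 54.2% against 11.7%, and a CCAAT box together with either CHR form in 70.8% against 10.7%. Neighbouring CCAAT boxes that started 30 to 36 bases apart, as in Ccnb2, were found in 22.9% of the windows of members and 1.80% of all windows. In 31 windows of genes from a list of 30 for DNA replication, which precedes mitosis, either CHR form lay in 22.6% and a CCAAT box in 58.1%. The members thus held the CHR letters more often than all promoters and than those of replication genes. A match describes letters only.

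There were 6743 T cells in replicate 1 and 2130 in replicate 2 of the total CD44high libraries, and 2208, 2132 and 1315 in the wild type, Thpok-sufficient and Thpok-deleted GP66+ libraries of day 7. At day 30 they numbered 725 Thpok-sufficient and 736 Thpok-deleted cells. The libraries held between 1551772 and 32149596 UMIs, and the median cell between 2017 (Thpok-sufficient, day 30) and 5899 (Thpok-deleted, day 7). All 7 T cell markers (Cd3d, Cd3e, Cd3g, Cd4, Cd8a, Cd8b1 and Cd44) had UMIs in every library. The targeted gene Zbtb7b stood at 27.2 CPM (UMIs of a gene per 1000000 UMIs of the cells summed) in the wild type, 31.3 and 20.6 CPM in the Thpok-sufficient and 0.114 and 0.467 CPM in the Thpok-deleted GP66+ libraries (day 7 first). Cells with a Cd8a or Cd8b1 UMI made up 32.9% and 10.3% of the Thpok-deleted libraries at days 7 and 30, and 7.25%, 6.89% and 1.52% of the wild type and the 2 Thpok-sufficient libraries. B cell markers summed to 3.87 to 9.95 CPM over the libraries. Myeloid markers summed to 17.4 to 49.5 CPM, NK cell markers to 2.09 to 67.4 CPM with Ncr1 at 0 in 6 libraries, and plasma cell markers to at most 3.65 CPM. The Thpok-deleted library of day 30 held 5505 CPM of erythroid markers, 11350 of their 11789 UMIs in 1 cell, which held 1 UMI of the members.

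The 53 genes together made up 3082 CPM (95% interval 3063 to 3102) and 2736 CPM in the total CD44high replicates. In the GP66+ libraries of day 7 they made up 3291 CPM in wild type, 2170 CPM in Thpok-sufficient and 3818 CPM in Thpok-deleted cells. At day 30 they made up 525 CPM (489 to 562) in Thpok-sufficient and 1101 CPM (1057 to 1146) in Thpok-deleted cells. The 5 day 7 libraries therefore lay above both day 30 libraries, and Thpok-deleted cells lay above Thpok-sufficient cells of the same day, by 1.76-fold at day 7 and 2.10-fold at day 30. Intervals are exact Poisson intervals here, and exact binomial intervals for shares of cells; they cover counting error only. A summed level cannot tell fewer cells of a kind from less RNA per cell. In barcodes with at most 50 UMIs, taken as empty droplets, the members made up 598 to 4435 CPM, above the cells of the same library in all but the wild type one, so that free RNA also held these genes. Its part in the results was not tested. Ccna2, Ube2c, Nusap1, Cdc20, Kif20a, Kif22, Knstrn, Ckap2l, Prc1, Ncapg, Tacc3 and Mxd3 share exon sequence with a counted gene on the other strand, whose reads could not be told apart if strand was ignored.

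The share of cells was read after thinning each cell to 1000 UMIs, because a deeper cell shows more genes. A cell with UMIs of at least 5 of the 53 genes is called member-rich. Member-rich cells made up 10.3% (9.59 to 11.1) and 12.1% (10.7 to 13.5) of the total CD44high replicates, 12.2% (10.8 to 13.6) of wild type, 8.77% (7.60 to 10.1) of Thpok-sufficient and 21.8% (19.6 to 24.2) of Thpok-deleted GP66+ cells at day 7. At day 30 they were 2 of 714 Thpok-sufficient cells (0.280%, 0.0339 to 1.01) and 12 of 732 Thpok-deleted cells (1.64%, 0.850 to 2.85), after 11 and 4 shallower cells were left out. Thinned to 2000 UMIs, which left out 354 and 217 cells, they were 5 of 371 (1.35%, 0.439 to 3.12) and 13 of 519 (2.5%, 1.34 to 4.25), so that the ratio of the day 30 shares was 5.85 (1.31 to 26.1) at 1000 UMIs and 1.86 (0.668 to 5.17) at 2000 UMIs. Unthinned, the shares of all 7 libraries were 21.0%, 33.5%, 34.2%, 27.3%, 54.4%, 0.966% and 5.43% in the order given above. The shares thinned to 1000 UMIs ordered the libraries as the summed level did, except that the total replicates changed places. The unthinned shares did not, since total replicate 1 then lay below the Thpok-sufficient library of day 7.

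**Figure D1:**
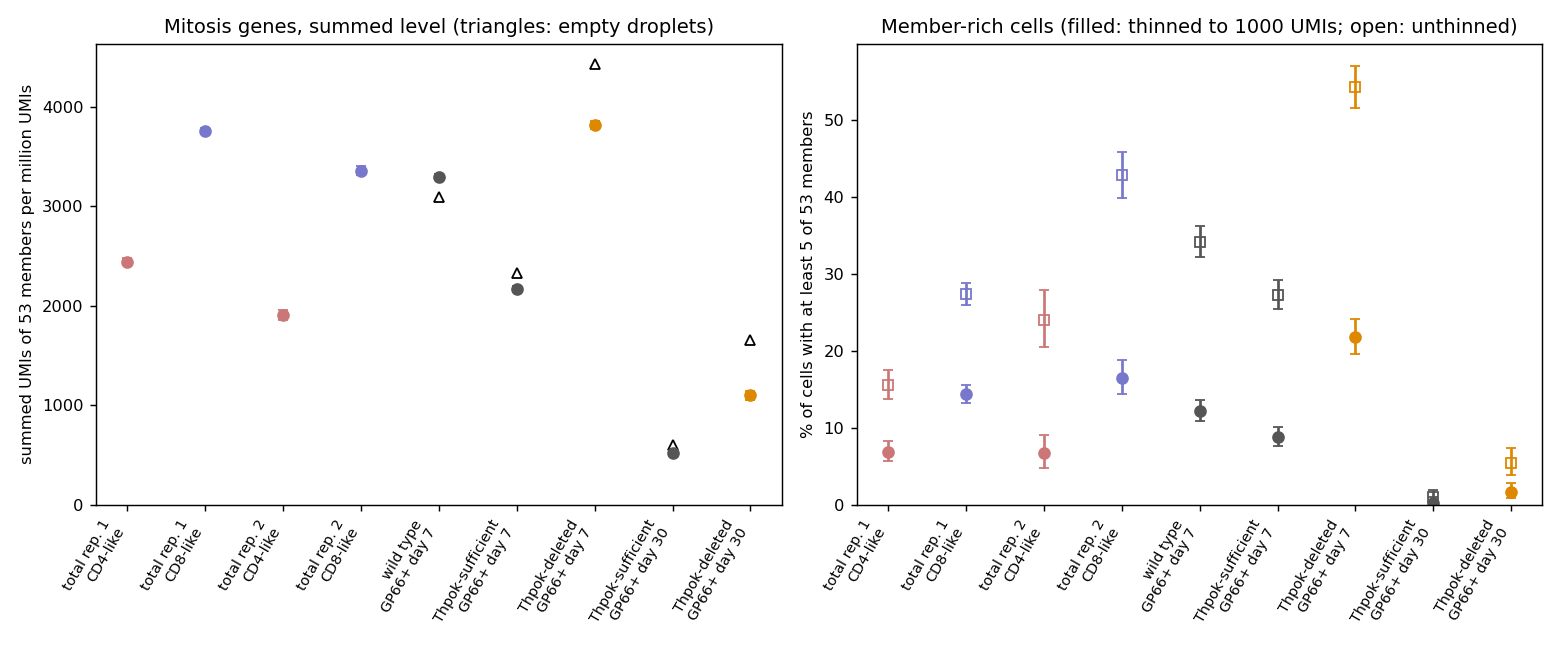
Left, summed CPM of the 53 mitosis genes in CD4-like and CD8-like cells of the total libraries and in the T cells of each GP66+ library, with 95% Poisson intervals. Triangles show the empty droplets of each GP66+ library. Right, the percentage of cells with UMIs of at least 5 members after thinning to 1000 UMIs (filled) and unthinned (open), with 95% binomial intervals. Both day 30 libraries lie below every day 7 value in both panels.

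The member UMIs were spread unevenly over the cells. In the total CD44high replicates the tenth of cells with the most member UMIs held 78.0% and 63.1% of them, and in the GP66+ libraries of day 7 it held 70.2% in wild type, 66.6% in Thpok-sufficient and 47.2% in Thpok-deleted cells. In the day 30 Thpok-sufficient library 3 cells held 28.7% of its 814 member UMIs, and 1 cell alone held 106. In the day 30 Thpok-deleted library 10 cells held 42.2% of 2357. Without their 10 richest cells the day 30 libraries stood at 345 and 671 CPM. Cells with no member UMI at all made up 50.1% and 32.1% of the day 30 Thpok-sufficient and Thpok-deleted libraries and 4.33% to 14.7% of the day 7 libraries, at unequal depth.

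Mki67 and Plk1 were read in a smaller share of cells in both day 30 libraries than in any day 7 library, while for Smc4 the days overlapped. Mki67, the gene of the proliferation marker Ki-67, had a UMI in 3.62%, 4.18%, 5.30%, 3.42% and 5.17% of thinned cells of the 5 day 7 libraries (total replicates 1 and 2, wild type, Thpok-sufficient, Thpok-deleted) and in 0.280% and 1.09% at day 30 (Thpok-sufficient, Thpok-deleted). Plk1, the polo-like kinase, had a UMI in 1.33%, 1.13%, 1.68%, 1.03% and 2.21% of the day 7 cells, in 0 of 714 day 30 Thpok-sufficient cells (95% upper bound 0.515%) and in 0.137% of day 30 Thpok-deleted cells. Smc4, a core subunit of both condensin complexes, was read in far more cells, with 17.5%, 16.2%, 14.2%, 12.5% and 16.2% at day 7 and 8.68% and 15.2% at day 30.

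The first comparison asked how CD44high CD8+ and CD4+ T cells of the same library differ at day 7. CD8-like cells (with UMIs of Cd8a or Cd8b1 but none of Cd4) held more mitosis RNA than CD4-like cells (the reverse) in both total CD44high libraries. The summed level was 3757 CPM in 3539 CD8-like cells against 2445 CPM in 1448 CD4-like cells of replicate 1 (1.54-fold, 1.51 to 1.56) and 3359 CPM in 1071 against 1910 CPM in 552 cells of replicate 2 (1.76-fold, 1.71 to 1.81). Member-rich cells made up 14.4% of CD8-like and 6.91% of CD4-like cells in replicate 1 and 16.5% and 6.70% in replicate 2 (thinned), a ratio of 2.09 (1.70 to 2.56) and 2.47 (1.76 to 3.46). Replicate 1 joins 3 capture wells, in which CD4-like cells ranged from 2183 to 2599 CPM and CD8-like cells from 3551 to 3854 CPM. The classes did not overlap between wells.

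Of the 53 members, 52 rose in CD8-like against CD4-like cells by edgeR's quasi-likelihood test with the library as block (Benjamini-Hochberg adjusted p under 0.05 over 10207 genes), against 17% of all genes tested. CD8-like cells were above CD4-like cells within both libraries for all 53 members. Across libraries the classes did not overlap for 48 members, against 19.3% of all genes, the exceptions being Cenpf, Hmmr, Nusap1, Smc4 and Ube2c. The median log2 fold change was 0.80 over the members and -0.02 over all genes. The test rests on 1 residual degree of freedom, and its p-values, like all below, rest on the spread among these few libraries, part of which may be technical. Without the block 16 members were called, and DESeq2 with the block called 33.

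Racgap1 and Smc4 were the extremes. Racgap1 (ENSMUSG00000023015; chromosome 15, 99620496 to 99651656, minus strand, GRCm38) encodes a GTPase-activating protein of the central spindle that sets the place of the cleavage furrow. It stood at 48.1 and 36.1 CPM in CD4-like and 151 and 126 CPM in CD8-like cells (replicate 1 first), and rose by 1.79 on the log2 scale (SE 0.0902, edgeR adjusted p = 2.84e-11). Its change was the largest of the 53, and the classes did not overlap. Smc4 (ENSMUSG00000034349; chromosome 3, 69004738 to 69034623, plus strand) stood at 229 and 189 CPM in CD4-like and 232 and 200 CPM in CD8-like cells, with a log2 difference of 0.13 (SE 0.0680, edgeR adjusted p = 0.153). It was the 1 member that did not pass.

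All 7 genes of the Cdk1 group rose in CD8-like cells, with a median log2 fold change of 0.98. Ccnb2 stood at 88.5 and 77.7 CPM in CD4-like and 166 and 171 CPM in CD8-like cells and rose by 1.09 (SE 0.0834, edgeR adjusted p = 9.56e-09). The classes did not overlap. Cks1b and Cks2 encode small proteins that bind Cdk1 and help it reach its substrates. Cks1b stood at 118 and 100 CPM against 202 and 215 CPM (log2 1.0, SE 0.0832), and Cks2 at 145 and 117 CPM against 207 and 176 CPM (log2 0.63, SE 0.0739), the smallest change of the group.

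All 6 mitotic kinases and passengers rose (median 0.82). Birc5, encoding survivin of the chromosomal passenger complex that corrects faulty attachments, stood at 129 and 113 CPM in CD4-like and 240 and 218 CPM in CD8-like cells, a log2 change of 1.0 (SE 0.0727, edgeR adjusted p = 4.86e-09). Its partner Cdca8, encoding borealin, stood at 63.2 and 42.3 CPM against 100 and 91.9 CPM (log2 0.92, SE 0.101). Neither overlapped between the classes. All 7 genes of the anaphase-promoting complex and checkpoint group rose too (median 0.80). Ube2c, the ubiquitin-conjugating enzyme of the complex, stood at 108 and 46.6 CPM in CD4-like and 174 and 99.3 CPM in CD8-like cells, so that CD8-like cells of replicate 2 lay below CD4-like cells of replicate 1. Its activator Cdc20 stood at 45.5 and 31.8 CPM against 67.5 and 63.7 CPM. Bub1, a checkpoint kinase, was the least certain, with 7.52 and 4.59 CPM against 9.03 and 10.8 CPM (log2 0.63, SE 0.23, edgeR adjusted p = 0.0419).

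All 9 kinetochore genes and all 9 spindle genes rose (medians 0.77 and 0.77). Spc24, a subunit of the Ndc80 complex that grips microtubules, stood at 41.3 and 38.0 CPM in CD4-like and 74.5 and 81.1 CPM in CD8-like cells (log2 1.03, SE 0.0966). Cenpa, the histone H3 variant that marks centromeres, moved less, with 175 and 132 CPM against 206 and 198 CPM (log2 0.47, SE 0.0812). Nusap1, a protein that bundles spindle microtubules, stood at 54.8 and 40.7 CPM against 85.5 and 54.4 CPM, so that the classes overlapped narrowly. Tacc3, which stabilises spindle microtubules, stood at 34.3 and 30.5 CPM against 47.6 and 49.7 CPM (log2 0.64, SE 0.107) and did not overlap. Within the kinetochore group the changes thus ran from 0.47 for Cenpa to 1.03 for Spc24.

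All 6 cytokinesis genes rose (median 0.91). Prc1, which crosslinks the microtubules of the central spindle where Racgap1 acts, stood at 35.0 and 33.4 CPM in CD4-like and 56.9 and 49.1 CPM in CD8-like cells (log2 0.73, SE 0.103), and Anln, encoding the ring scaffold anillin, at 2.31 and 3.94 CPM against 6.83 and 5.79 CPM (log2 1.29, SE 0.294). Of the 7 chromosome genes, 6 rose (median 0.63), among them Top2a at 132 and 129 CPM against 196 and 196 CPM (log2 0.67, SE 0.0733), Mki67 at 59.4 and 37.7 CPM against 98.2 and 81.8 CPM (log2 0.95, SE 0.0987) and the condensin subunit Ncapd2 at 26.9 and 22.6 CPM against 31.9 and 32.7 CPM (log2 0.43, SE 0.125). The 2 other regulators rose as well. Cdca3, part of a ubiquitin ligase that triggers mitotic entry, stood at 57.8 and 36.4 CPM against 86.3 and 73.5 CPM (log2 0.82, SE 0.102). Mxd3, a Myc-network repressor present in S and G2 phase, stood at 22.8 and 8.53 CPM against 35.7 and 30.1 CPM.

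Racgap1 was also read in cells that held none of the other members. Cells with no other member among their 1000 thinned UMIs still held Racgap1 at 110 CPM (102 to 118) among 1732 CD8-like cells of replicate 1 and at 74.7 CPM (63.2 to 87.7) among 428 of replicate 2. The CD4-like cells of the same kind held 16.9 CPM (12.8 to 21.8; 810 cells) and 14.8 CPM (9.29 to 22.5; 290 cells). The ratio of CD8-like to CD4-like cells was 6.52 and 5.04 there, and 1.22 and 1.57 in cells with at least 5 other members. Over the members with a value the median ratio in cells with no other member was 1.17 (48 members, 33 above 1) and 1.71 (46 members, 38 above 1), and 8 members (Bub1b, Ccnb1, Cenpa, Nusap1, Prc1, Smc2, Smc4 and Top2a) were below 1 in both libraries. Racgap1 did not stand alone at the top, since Cdkn3 had a ratio of 6.76 in replicate 1 (from 38 CD8-like UMIs over 3 of CD4-like cells) and Fbxo5 one of 4.60 in replicate 2 (from 18 and 3 UMIs). Smc4 had the higher level in such CD8-like cells, at 147 and 148 CPM. In cells with at least 5 other members the median ratio over all 53 genes was 0.907 and 0.855, with 12 and 15 genes above 1. Once a cell was member-rich, most members were thus lower in CD8-like than in CD4-like cells, while member-rich cells were more frequent among CD8-like cells. These classes of cells were made from the members themselves and from few UMIs per gene, so the values are a description with no test.

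**Figure D2:**
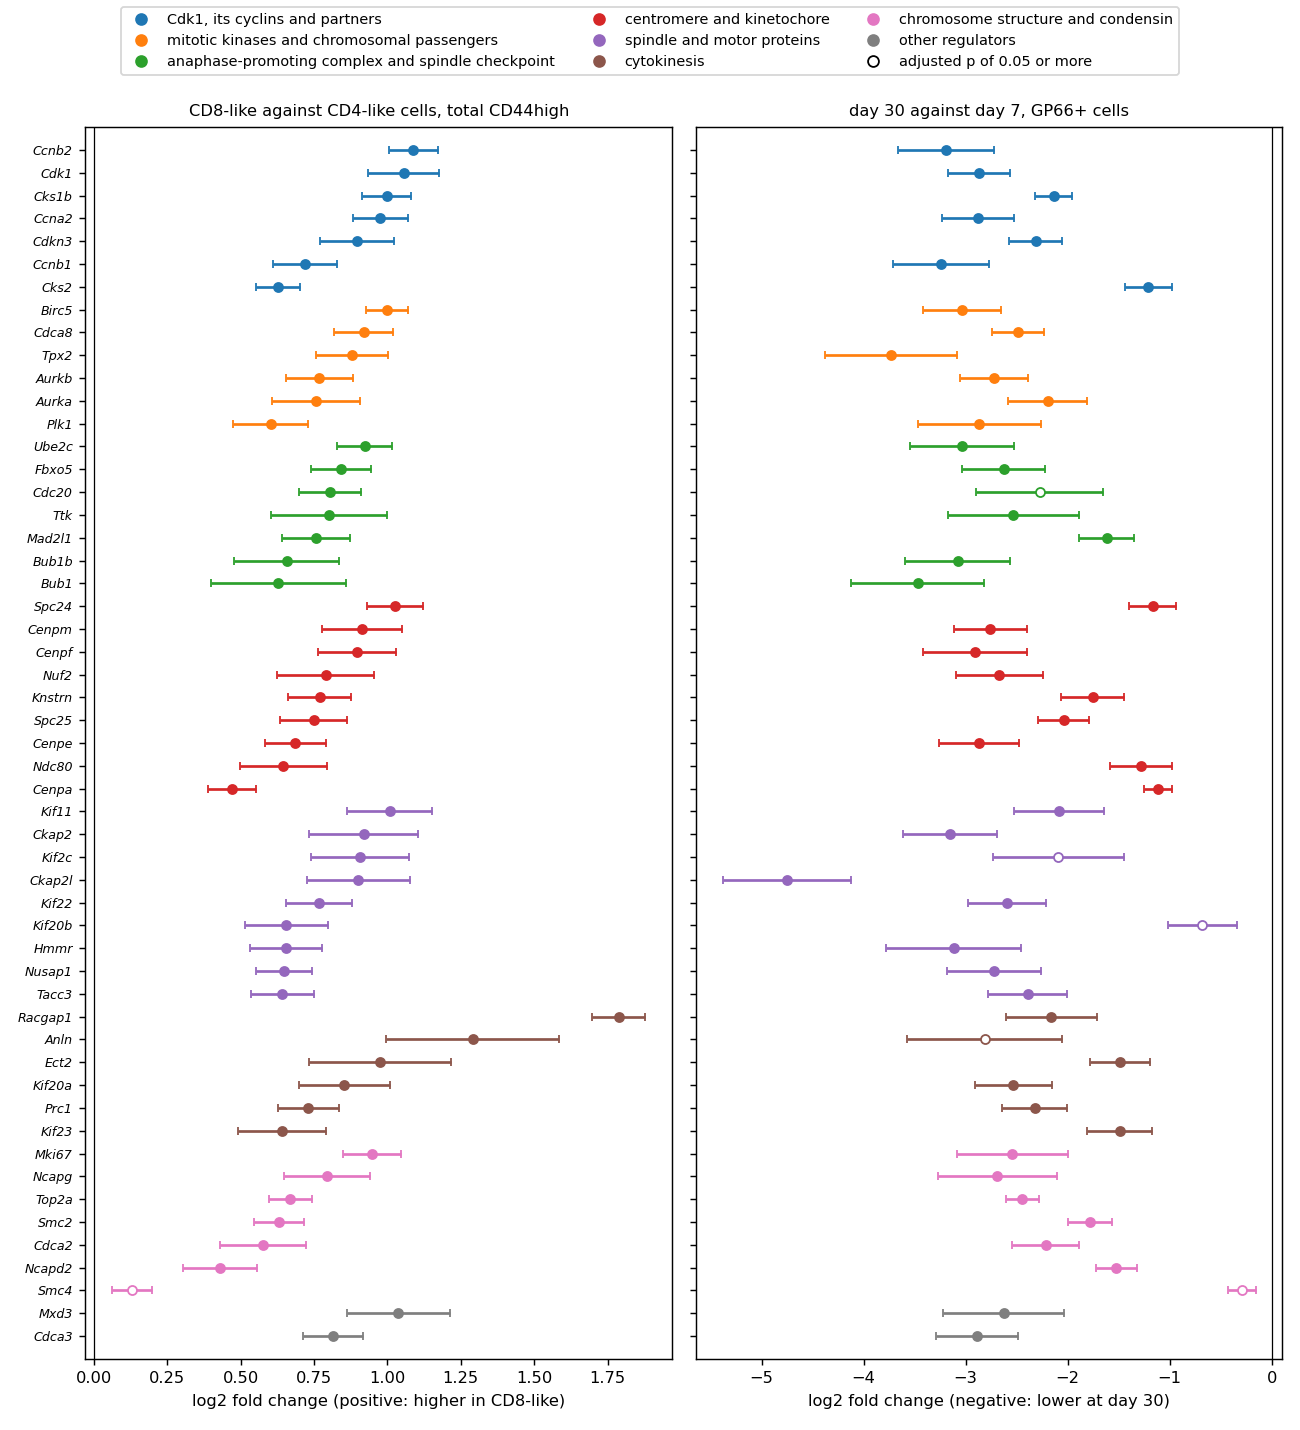
Log2 fold change of each of the 53 members (points) with its standard error (bars) from edgeR, left for CD8-like against CD4-like cells of the total CD44high libraries and right for day 30 against day 7 in GP66+ cells. Colours give the role group and open points have an adjusted p of 0.05 or more. Racgap1 is farthest right in the left panel, and Smc4 is nearest to 0 in both panels.

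The next comparison set CD4-like cells of the GP66+ libraries with intact Thpok against those of the total libraries, both at day 7, which asks whether virus-specific helper cells differ from the whole activated CD4+ pool. The summed level was 3439 CPM in wild type and 2046 CPM in Thpok-sufficient GP66+ cells, and 2445 and 1910 CPM in the total libraries. Member-rich cells made up 12.9% and 7.66% of the GP66+ cells and 6.91% and 6.70% of the total cells (thinned). The wild type library alone stood above the others. No member passed the test by edgeR, against 0.458% of 10270 genes called higher and 0% called lower. At an unadjusted p under 0.05 it was 4 members higher (6.83% of all genes were) and 0 lower (6.11%), and DESeq2 called 1 member, Top2a.

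Log2 differences were positive for 47 of 53 members with a median of 0.30 (0.00 over all genes). Without the wild type library the median was -0.08 and 37 members were negative. Without the Thpok-sufficient library 8 members were called. For 6 members the GP66+ libraries did not overlap the total ones from above, against 15% of all genes. Ect2, which activates the GTPase RhoA at the cleavage furrow, stood at 12.1 and 9.81 CPM in GP66+ (wild type first) and 5.93 and 2.95 CPM in total CD4-like cells (log2 1.26, SE 0.359, edgeR adjusted p = 0.283). Kif11, the motor that pushes spindle poles apart, stood at 38.9 and 16.0 CPM against 15.5 and 12.8 CPM (log2 0.98, SE 0.401, edgeR adjusted p = 0.393), and Bub1 at 15.0 and 7.29 CPM against 7.52 and 4.59 CPM (log2 0.87, SE 0.416). Top2a stood at 227 and 173 CPM against 132 and 129 CPM (log2 0.68, SE 0.136, edgeR adjusted p = 0.165). At the other end Mxd3 stood at 14.8 and 11.8 CPM against 22.8 and 8.53 CPM (log2 -0.26, SE 0.447), Fbxo5, an inhibitor of the anaphase-promoting complex, at 33.7 and 25.4 CPM against 35.4 and 33.8 CPM, and Smc4 at 195 and 155 CPM against 229 and 189 CPM. Ect2, Kif11 and Top2a were among the 6 members that were higher in both GP66+ libraries than in both total libraries. These 6 are 11.3% of the members, below the 15% of all genes, so this order does not set the members apart.

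The comparison of days asked how memory-phase GP66+ cells at day 30 differ from effector-phase cells at day 7. The summed level was 4.14 times as high at day 7 as at day 30 in Thpok-sufficient cells (3.86 to 4.44) and 3.47 times as high in Thpok-deleted cells (3.33 to 3.62), the latter 5.84 times when cells above 3 times the median UMIs of their library were left out. In 1 fit of genotype and day over the 5 GP66+ libraries, 48 of 53 members fell by edgeR (10781 genes tested), against 12.5% of all genes, and 0 rose, against 9.76%. All 53 log2 differences were negative, with a median of -2.53 (0.01 over all genes). For 52 members every day 7 library lay above both day 30 libraries, against 32.7% of all genes. The fit has 2 residual degrees of freedom. In it the wild type library counted as Thpok-sufficient, although it differed from the Thpok-sufficient libraries in genotype and sort. That difference is thus part of the spread on which the p-values of genotype and day rest. No member was called without the Thpok-deleted library of day 7, or without either day 30 library, although all 53 differences stayed negative, and 22 were called when cells with a Cd4 UMI alone were summed. With library totals in place of TMM factors the median of all genes moved by -0.16, and 48 members were called. Cells were shallower at day 30 (a median of 2017 and 2440 UMIs against 5290 to 5899 in day 7 GP66+ cells), and 39 members had fewer than 10 UMIs at day 30 with Thpok intact and 11 with Thpok deleted.

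In the following, values run wild type, Thpok-sufficient and Thpok-deleted at day 7, then Thpok-sufficient and Thpok-deleted at day 30. All 7 genes of the Cdk1 group fell (median log2 change -2.87). Cdk1 stood at 59.5, 35.0 and 75.0 CPM at day 7 and 5.16 and 10.3 CPM at day 30 (log2 -2.87, SE 0.304, edgeR adjusted p = 0.0103), and Ccnb2 at 113, 70.8 and 129 CPM and then 3.22 and 22.4 CPM (log2 -3.19, SE 0.470, edgeR adjusted p = 0.0153). Cks2 kept more of its level, at 277, 171 and 212 CPM and then 69.0 and 106 CPM (log2 -1.21, SE 0.232, edgeR adjusted p = 0.0244). Its relative Cks1b stood at 131, 113 and 266 CPM and then 27.1 and 49.5 CPM (log2 -2.14, SE 0.181). Days did not overlap for any of these 4.

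All 6 kinases and passengers fell (median -2.79). Birc5 stood at 182, 115 and 249 CPM at day 7 and 8.38 and 44.8 CPM at day 30 (log2 -3.04, SE 0.383, edgeR adjusted p = 0.0121), and Cdca8 at 91.8, 56.4 and 114 CPM and then 11 and 19.6 CPM (log2 -2.49, SE 0.255). Tpx2, which recruits Aurora A to the spindle, stood at 43.6, 25.8 and 50.8 CPM and then 0 and 6.07 CPM (log2 -3.73, SE 0.645). A count of 0 of 1551772 UMIs allows up to 1.93 CPM (3 UMIs), if UMIs are independent. The day 7 level of Tpx2 in Thpok-sufficient cells was 13.3-fold this floor. For Bub1 it was 4.28-fold, for Ckap2l 4.20-fold, for Ttk 2.37-fold and for Anln 1.12-fold the floor. These ratios give the day 7 count no counting error, so the small ratio of Anln cannot show that it was lower at day 30.

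Of the 7 genes of the anaphase-promoting complex and checkpoint, 6 fell (median -2.63). Ube2c stood at 156, 87.3 and 144 CPM at day 7 and 5.16 and 29.4 CPM at day 30 (log2 -3.03, SE 0.508, edgeR adjusted p = 0.0189), and Bub1 at 14.3, 8.28 and 17.9 CPM and then 0 and 2.33 CPM (log2 -3.47, SE 0.651, edgeR adjusted p = 0.0233). Cdc20 did not pass, at 61.4, 34.6 and 50.6 CPM and then 1.93 and 19.6 CPM (log2 -2.27, SE 0.624, edgeR adjusted p = 0.0556). Ttk, the checkpoint kinase also known as Mps1, stood at 7.16, 4.58 and 11.6 CPM and then 0 and 2.80 CPM (log2 -2.53, SE 0.639). The day 30 libraries of Cdc20 lay farther apart, relative to their level, than those of Ube2c.

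All 9 kinetochore genes fell (median -2.04), and this group held several of the smallest changes. Cenpa stood at 222, 192 and 217 CPM at day 7 and 73.5 and 107 CPM at day 30 (log2 -1.11, SE 0.134, edgeR adjusted p = 0.0117), and Spc24 at 62.2, 45.4 and 95.3 CPM and then 24.5 and 32.7 CPM (log2 -1.17, SE 0.232, edgeR adjusted p = 0.0269). Knstrn, encoding the spindle-binding protein kinastrin, stood at 38.1, 28.8 and 45.2 CPM and then 11.6 and 8.87 CPM (log2 -1.75, SE 0.310). Of the 9 spindle genes, 7 fell (median -2.60). Ckap2l, a spindle-pole protein, had the largest fitted change of all members, at 13.2, 8.12 and 19.1 CPM and then 0 and 0.934 CPM (log2 -4.76, SE 0.628, edgeR adjusted p = 0.0133). Like Tpx2, Bub1, Ttk and Anln, it had no UMI in the day 30 Thpok-sufficient library. The size of such a change thus rests in part on the prior count of the fit. In a joint fit that let the change with day differ between genotypes, the change of Ckap2l was -9.35 in Thpok-sufficient and -4.33 in Thpok-deleted cells. Nusap1 stood at 69.0, 47.2 and 102 CPM and then 2.58 and 24.3 CPM (log2 -2.72, SE 0.462), and Tacc3 at 46.4, 24.7 and 48.0 CPM and then 3.87 and 11.2 CPM. Kif20b, a kinesin of late mitosis, stood at 28.9, 17.6 and 27.6 CPM and then 16.1 and 11.7 CPM (log2 -0.68, SE 0.339, edgeR adjusted p = 0.196) and did not pass, like Kif2c.

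Of the 6 cytokinesis genes, 5 fell (median -2.24), Anln being the exception at 3.23, 2.2 and 4.88 CPM and then 0 and 0.934 CPM (log2 -2.81, SE 0.760, edgeR adjusted p = 0.0534). Racgap1 stood at 61.8, 41.2 and 100 CPM at day 7 and 3.87 and 35.5 CPM at day 30 (log2 -2.16, SE 0.448, edgeR adjusted p = 0.0289), so that the day 30 Thpok-deleted library reached 35.5 CPM beside 41.2 CPM in Thpok-sufficient cells of day 7. Prc1 stood at 55.2, 30.8 and 67.0 CPM and then 6.44 and 14 CPM (log2 -2.32, SE 0.318). Of the 7 chromosome genes, 6 fell (median -2.22). Top2a stood at 217, 176 and 262 CPM and then 26.4 and 53.7 CPM (log2 -2.44, SE 0.165, edgeR adjusted p = 0.00658), and Mki67 at 107, 46.1 and 97.7 CPM and then 5.16 and 26.1 CPM (log2 -2.54, SE 0.546, edgeR adjusted p = 0.0313). Smc4 was the 1 member whose days overlapped, at 189, 160 and 215 CPM and then 107 and 193 CPM (log2 -0.29, SE 0.138, edgeR adjusted p = 0.177). Both other regulators fell, Cdca3 from 80.3, 47.2 and 84.4 CPM to 3.87 and 15.9 CPM and Mxd3 from 16.0, 11.9 and 30.1 CPM to 4.51 and 1.87 CPM. Chromosome genes took 21.3% to 23.9% of all member UMIs in the day 7 libraries and 33.4% and 31.4% in the day 30 libraries. The day 30 shares rest largely on Smc4, which gave 107 of the 175 CPM and 193 of the 346 CPM of this group. In the GP66+ libraries of day 7 Smc4 gave 189 of 727, 160 of 518 and 215 of 834 CPM. Kinases and passengers took 11.2% to 13.2% at day 7 and 4.91% and 7.89% at day 30.

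**Figure D3:**
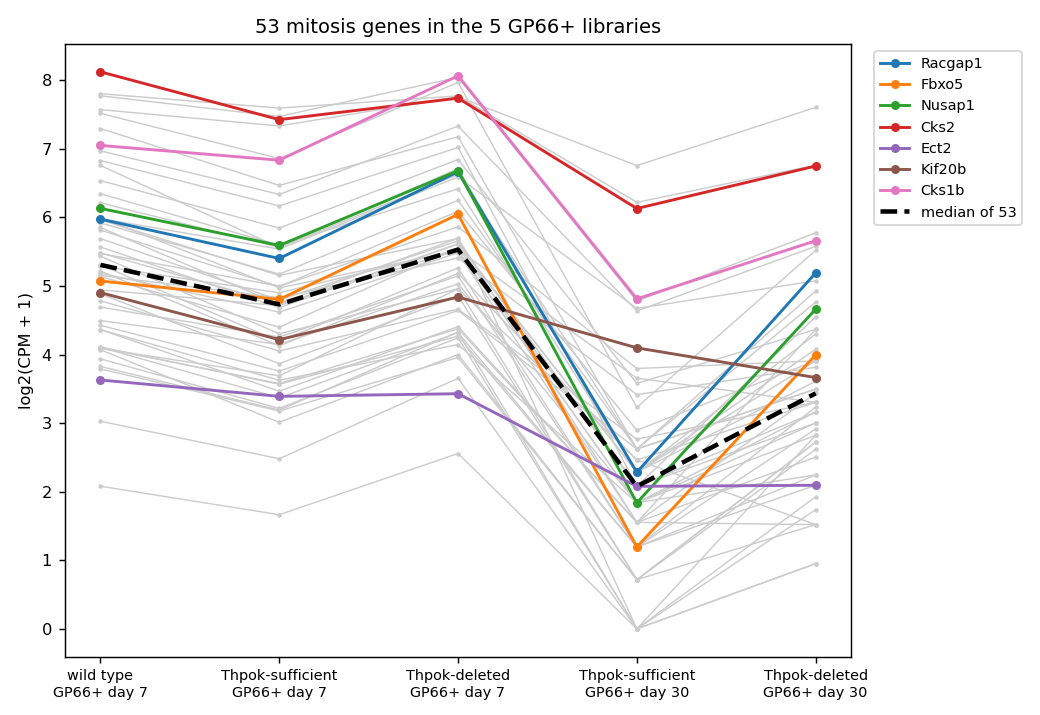
Level of each of the 53 members in the 5 GP66+ libraries as log2(CPM + 1), with 7 members in colour and the median of the 53 dashed. Lines join the values of a gene and show no time course. The median is lowest in the Thpok-sufficient library of day 30, and the wild type and Thpok-deleted libraries of day 7 lie above the Thpok-sufficient one.

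The comparison of genotypes asked whether loss of Thpok after activation alters GP66+ cells. At day 7 all 53 members were higher in the Thpok-deleted than in the Thpok-sufficient library, by a median ratio of 1.91 (from 1.03 for Ect2 to 2.53 for Mxd3), against 54.7% of all genes. Wild type cells, which also have intact Thpok, were higher than Thpok-sufficient cells for all 53 as well, by a median ratio of 1.62 (1.16 for Cenpa to 2.32 for Mki67), against 68.6% of all genes. The Thpok-deleted library was above both intact libraries for 36 members, against 36.6% of all genes. The ratio of Thpok-deleted to wild type cells had a median of 1.17 and ran from 0.712 for Ccnb1, encoding cyclin B1, to 2.03 for Cks1b. The other 17 members were highest in wild type cells, namely Aurka, Ccnb1, Cdc20, Cenpa, Cenpe, Cenpf, Cks2, Ect2, Hmmr, Kif11, Kif20b, Kif23, Kif2c, Mki67, Ncapg, Plk1 and Ube2c. At day 30, 49 members were higher in the Thpok-deleted than in the Thpok-sufficient library, against 65.7% of all genes.

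In the fit of both terms no member passed for genotype by edgeR, against 0.751% of 10781 genes called higher and 0.362% called lower. At an unadjusted p under 0.05 it was 21 members, all higher (9.54% of all genes were), and DESeq2 called 5, namely Birc5, Cks1b, Fbxo5, Nusap1 and Racgap1. Without the wild type library edgeR called 12. The median log2 difference was 0.71 (0.02 over all genes), and 52 of 53 were positive. Role groups ran from a median of 0.64 for kinetochore genes to 0.86 for the Cdk1 group. The ratio between the 2 intact libraries of day 7 (median 1.62) thus came near that between Thpok-deleted and Thpok-sufficient cells (1.91). The share of cells with a Cd8 UMI, given above, moved with the genotype, and its part in the result was not tested. With cells holding a Cd4 UMI alone the median was 0.63 and no member was called.

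The members with the largest differences between genotypes were Racgap1, Fbxo5 and Nusap1. Racgap1 was higher in the Thpok-deleted library at each day (values above), with a log2 difference of 1.5 (SE 0.399, edgeR adjusted p = 0.156). Fbxo5 stood at 32.6, 26.9 and 65.0 CPM at day 7 and 1.29 and 14.9 CPM at day 30 (log2 1.49, SE 0.338, edgeR adjusted p = 0.115), and Nusap1 had a difference of 1.30 (SE 0.403, edgeR adjusted p = 0.196). Of these 3, each Thpok-deleted value was above every intact value of its day, as it was for 33 of the 53 members, against 29.2% of all genes. Cks1b, with a difference of 1.0, had the smallest adjusted p of the members (SE 0.162, edgeR adjusted p = 0.0623). Ect2 stood at 11.4, 9.48 and 9.77 CPM and then 3.22 and 3.27 CPM (log2 -0.06, SE 0.238, edgeR adjusted p = 0.934), and Kif20b and Cks2 had differences of 0.02 (SE 0.309) and 0.16 (SE 0.222).

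Whether the genotype difference itself differed between days was tested with a product term on 1 residual degree of freedom. By edgeR no member passed, against 0% of 11312 genes in either direction. At an unadjusted p under 0.05 it was 6 members higher and 1 lower (4.84% and 1.79% of all genes), and DESeq2 called 0. The estimates had a median of 0.77, 43 of 53 being positive, and a median of -0.27 when cells above 3 times the median UMIs of their library were left out. With library totals the median of all genes moved by 0.26. Tpx2, Bub1 and Ttk had the largest estimates, but each had no UMI in the day 30 Thpok-sufficient library, so these rest on the prior count of the fit. The lowest were those of Mxd3 (log2 -2.64, SE 0.592, edgeR adjusted p = 0.704), Knstrn (-1.09, SE 0.392) and Kif20b (-0.99, SE 0.571), which at day 30 were lower in Thpok-deleted than in Thpok-sufficient cells and at day 7 higher.

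Members differed in how far they were confined to member-rich cells. For each member the CPM in cells with at least 5 other members was set against that in cells with none, as the median over the 5 day 7 libraries. Nusap1 was 245-fold, Hmmr 182-fold, Ttk 106-fold, Bub1 105-fold and Cenpf 104-fold higher in member-rich cells. Smc4 was 3.95-fold, Cks2 6.21-fold, Racgap1 6.24-fold, Cenpa 7.78-fold and Knstrn 9.94-fold higher. Member-rich cells held 85.8% to 93.5% of Nusap1 UMIs and 34.6% to 53.7% of Smc4 UMIs in these libraries. Racgap1 in cells with none of the others stood at 63.7 and 43.4 CPM in the total libraries, 15.4 CPM in wild type, 13.3 CPM in Thpok-sufficient and 35.8 CPM in Thpok-deleted GP66+ cells. In such cells it was thus highest in the total libraries, which hold CD8-like cells, and next in Thpok-deleted cells.

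Across the 53 genes, members more confined to member-rich cells had the larger decrease at day 30 (Spearman's rho -0.61), while the relation to the lineage difference was weaker (0.22). Both measures use the day 7 GP66+ libraries, genes are not independent replicates, and the ratio also went with the mean level (rho -0.39), so these are descriptions. Among the members printed above, Cks2, Racgap1 and Knstrn had low ratios and no CHR match before the start, but Nusap1 and Bub1, with ratios near the top, had no CHR match in their windows either, and Cenpa, with a low ratio, had 2.

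**Figure D4:**
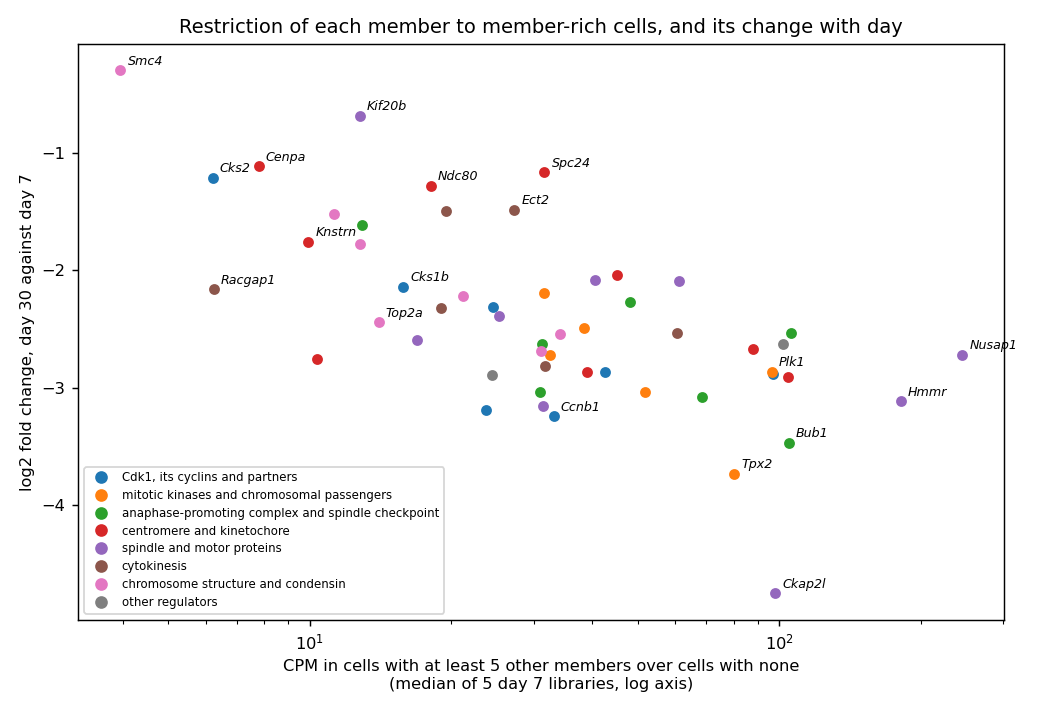
Each point is a member, placed by its CPM in cells with at least 5 other members over cells with none (median of 5 day 7 libraries, log axis) and by its log2 fold change at day 30 against day 7. Colours give the role group. Smc4, Cks2, Cenpa and Kif20b lie at upper left, and Hmmr, Nusap1, Bub1, Tpx2 and Ckap2l at lower right.

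Further lists of cell cycle genes were read against all genes tested, of which 17% rose and 17.9% fell in CD8-like against CD4-like cells, and 9.76% rose and 12.5% fell at day 30. Of 38 further mitosis genes tested, 24 rose and 1 fell in CD8-like against CD4-like cells and 19 fell at day 30, among them Aspm, a spindle-pole protein (log2 -3.40, SE 0.697), and Ska1, which steadies kinetochores on microtubules (log2 -4.21, SE 0.542). Of 30 replication genes, 29 rose in CD8-like cells, led by Cdc6 (log2 1.34, SE 0.205) and Cdt1 (log2 1.27, SE 0.122), which load the replicative helicase, and 25 fell at day 30, among them Tyms, thymidylate synthase (log2 -2.57, SE 0.400). In the genotype comparison edgeR called 2 of the 30 replication genes higher (6.67%, against 0.751% of all genes), Mcm6 (log2 1.03, adjusted p = 0.0472) and Rpa2 (log2 1.22, adjusted p = 0.0354), named after their values were seen. Of 16 transcription factors of the cell cycle, 7 rose in CD8-like cells, led by E2f8 (log2 1.27, SE 0.192), E2f7 (log2 1.24, SE 0.267) and Foxm1 (log2 1.13, SE 0.252). Foxm1 and Mybl2 act with the complex that binds the CHR, and Mybl2 fell at day 30 (log2 -2.07, SE 0.418). At day 30, 4 of these factors fell (25%) and 2 rose (12.5%), the latter a share near that of all genes.

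Of 12 G1 cyclins, kinases and inhibitors tested, 6 rose and 1 fell in CD8-like cells, with Cdkn2a (log2 1.67, SE 0.251), an inhibitor of Cdk4 and Cdk6, ahead of cyclin E2, Ccne2 (log2 0.89, SE 0.184). At day 30, 5 fell and 2 rose, Ccne1 by -2.05 (SE 0.256) and the cyclin D2 gene Ccnd2 by 1.75 (SE 0.185). Of 12 genes tied to quiescence, 7 rose and none fell at day 30, with Btg1 (log2 2.62, SE 0.454), Btg2 (log2 2.5, SE 0.127) and Tsc22d3 (log2 2.04, SE 0.132), which restrain growth, moving against the members. In CD8-like cells 5 of these rose (41.7%) and 3 fell (25%, beside 17.9% of all genes), so that there the direction was mixed.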

How the data were processed

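Droplet libraries were made with the 10x 3' chemistry, version 2, per the labels. The authors turned the reads into UMI counts per gene and barcode. The submitters' processing notes name bcl2fastq 2.17, Cell Ranger and mm10. Which Cell Ranger version and annotation, and whether strand was used, is not given in the sources used. The deposited counts are raw and hold empty droplets. Barcodes with at least 10% of the 99th percentile UMI total of the top 3000 barcodes of their well, 500 genes or more and at most 10% mitochondrial UMIs were kept as cells. Cells with UMIs of at least 3 B cell or 3 myeloid markers were left out (102, 9, 4, 6, 4, 0 and 0, in the order total replicates 1 and 2, wild type, Thpok-sufficient and Thpok-deleted day 7, then Thpok-sufficient and Thpok-deleted day 30). Doublets were not called. Any 2 libraries shared 1 to 25 barcodes. In the total libraries 323 and 155 cells had UMIs of both lineages and 1433 and 352 of neither, and were in no class. No label pairs the libraries, and those with the same replicate number share only the number.

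UMI counts of the cells of a library or class were added up and tested over all genes with edgeR 4.0.16 in R 4.3.3 (quasi-likelihood, two-sided, TMM, filterByExpr, Benjamini-Hochberg at 0.05). All 53 members passed the filter in each comparison. Standard errors were taken from the log2 fold change and the F statistic. CPM are relative to 1000000 UMIs of the cells summed. Since 3' tags count molecules, they were not scaled by length. Alternatives used DESeq2 1.42.0, other filters, scaling and cells, and each library left out. Those on library totals, on Cd3-negative and erythroid cells and on cells of very high UMI totals were chosen after seeing the data. Python 3.11.15, numpy 2.4.6 and scipy 1.17.1 made the sums, thinning and intervals. The script was tested on simulated data. Promoter sequences are from RefSeq, and gene coordinates from GENCODE (GRCm38).

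The members and gene lists were chosen with earlier results of these data known. Values are printed for the 2 members with the highest mean CPM of each role group, for the 3 with the largest and the 3 with the smallest fold change of each comparison, for others at need, and for up to 4 genes of each other list per comparison.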

Additional observations from a re-analysis of the deposited data

Results flagged for a closer look

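Barcodes with at most 50 UMIs, which entered no comparison, held UMIs of the mitosis genes in every library. Their summed level was 3845 and 2794 CPM in total CD44high replicates 1 and 2. In the GP66+ libraries it was 3097 CPM in wild type, 2332 CPM in Thpok-sufficient and 4435 CPM in Thpok-deleted libraries of day 7, and 598 CPM in the Thpok-sufficient and 1658 CPM in the Thpok-deleted library of day 30. Each is above what a count of 0 allows. The order of the libraries was that of their cells, except that wild type and total replicate 1 changed places.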

How the results depend on the processing

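No value in these alternatives turned direction for a called result. In CD8-like against CD4-like cells, 33 members were called with DESeq2, and 16 with no replicate block, the block being the shared library. Leaving out a library left no residual degree of freedom there and was not run. For GP66+ against total CD4-like cells, DESeq2 called 1 member, no filter on low counts 9, and leaving out each library 0 to 8. For genotype, DESeq2 called 5, no filter 8, and leaving out each library 0 to 12. For day, 22 were called over cells with a Cd4 UMI alone and 0 to 51 with each library left out. In DESeq2 49 were called for day. The summed ratio of CD8-like to CD4-like cells of replicate 1 was 1.57 with B and myeloid cells kept and 1.61 as the mean of per-cell CPM. That of Thpok-deleted to Thpok-sufficient cells at day 30 was 1.48 without cells above 3 times the median UMIs and 1.77 as the per-cell mean. That of day 7 to day 30 was 4.90 in Thpok-sufficient and 5.84 in Thpok-deleted cells without cells of high UMI totals, and 4.38 in the latter as the per-cell mean. The cause was not tested. Of the named members' values, 54 of 60 kept their call and direction for lineage, 70 of 84 for day, 75 of 78 for specificity, 75 of 84 for genotype and 48 of 48 for the product term. Of values that never passed the threshold as reported, 2 for specificity and 10 for genotype changed sign. The day 30 libraries limit what depth can show, with 814 and 2357 member UMIs, and 1 library per group and day leaves each value without a replicate of its own.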

Other observations

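Member-rich cells also differed from cells with no member in genes outside the list, within each of the 5 day 7 libraries. Of 9900 genes outside the list with UMIs in both kinds of cell in all 5 libraries, 24.5% were higher and 22.4% lower in member-rich cells in all 5. All 30 replication genes were higher in member-rich cells in every library, Rrm2, a subunit of ribonucleotide reductase, by a median of 32.7-fold. Of 16 cell cycle transcription factors 12 were higher in all 5, with E2f8 at 46.3-fold and Foxm1 at 39.1-fold, while Myc was lower in all 5 (0.835-fold). Of 12 quiescence genes 9 were lower in all 5, among them Btg1 (0.458-fold) and Pdcd4 (0.452-fold). The other 3 were Klf2 (0.893-fold, 0.819 to 1.24 over the libraries), Klf3 (0.773-fold, 0.710 to 1.17) and Ccng2, encoding cyclin G2, which was higher in all 5 (1.97-fold, 1.85 to 2.21). Of 13 G1 genes, 12 had a value in all 5 libraries. Of these 12, 8 were higher in all 5 and Cdkn1b, the inhibitor p27, was lower in all 5 (0.702-fold). Member-rich cells were deeper, with a median of 7592 to 10095 UMIs against 3766 to 5249 in cells with no member, and its part in these ratios was not tested.

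Of 25 genes of T cell state, 22 had a value in all 5 libraries, and 9 of these were lower in member-rich cells in all 5, beside the 22.4% of all genes given above, namely Ccr7 (0.229-fold), Il21 (0.305-fold), Tcf7 (0.310-fold), Cxcr5 (0.340-fold), Il7r (0.416-fold), Id3, Icos, Pdcd1 and S1pr1. These include Tcf7 and Ccr7, linked to memory precursors, and Cxcr5 and Il21, linked to follicular helper cells. Of these 22 genes, 3 were higher in all 5, beside 24.5% of all genes. Ccl5 was higher in 1 library and lower in 4, and Cxcr6 and Ifng were higher in 2 and lower in 3. Tbx21 was higher in 4 and lower in 1. Those higher in all 5 were the granzyme B gene Gzmb (2.45-fold), Gzma and Klrg1. In the total libraries this mixes lineages, since CD8-like cells held more of both. Within CD8-like cells Gzmb was 1.59-fold and 1.40-fold and within CD4-like cells 9.23-fold and 2.83-fold higher in member-rich cells (replicates 1 and 2), while Klrg1 was 0.863-fold and 1.04-fold in CD8-like cells. Cxcr5 within CD4-like cells was at 68.9 CPM in member-rich and 111 CPM in other cells of replicate 1, and at 6.76 against 81.3 CPM in replicate 2, where member-rich cells held 2 UMIs of it. These ratios are descriptions of cells within libraries, with no test.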
